A study of Mus musculus with 23 samples.

Results

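The liver response of wild-type (WT) mice to pregnenolone 16α-carbonitrile (PCN), a steroid ligand of the pregnane X receptor (PXR), was described across the genome, by function and beyond the P450 genes and the targets of PPARα. The comparison used the arrays titled as liver of WT mice given PCN (WT PCN, 5 arrays) or vehicle (WT CONT, 6 arrays), which made 11 of the 23 arrays of the series, with 1 array per mouse. All 11 mice were C57BL/6J males bought at 6 weeks of age and acclimatized for 2 weeks. WT PCN mice received 100 mg/kg PCN in corn oil by intraperitoneal injection each day for 4 days, and WT CONT mice received corn oil alone. Livers were taken at Zeitgeber time 6, in the light phase, 6 h after the last injection. The other 12 arrays came from male Pxr-/- mice, in which the receptor gene is deleted and which were bred in the study's own facility on the C57BL/6J background, given corn oil (6) or PCN (6). They were used for the spread between arrays and for the test of whether a change in WT mice differed from that in Pxr-/- mice.

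PXR is a nuclear receptor of hepatocytes and intestinal cells that binds drugs, steroids and bile acids and acts with the receptor RXR on DNA. It is known for switching on genes that oxidize, conjugate and export foreign compounds. The enzymes that oxidize (P450s) need electrons from the reductase encoded by Por, and the enzymes that conjugate add glutathione, sulfate or glucuronic acid. In rodents, ligands of PXR also enlarge the liver and change genes of lipid and glucose metabolism.

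RNA from whole liver was hybridised to Agilent 1-colour arrays, and values are quantile-normalized log2 signals. On each array of the series 29510 to 33321 of the 56605 probes passed the scanner software's test against background (called well above background), with 31289 to 32483 in WT CONT and 30037 to 32084 in WT PCN mice. Replicates of a group correlated at 0.988 to 0.995 over the probes tested. All 10 hepatocyte markers were measured, 0 of them were called by limma and 2 had an unadjusted p under 0.05. Among these, Apob (-0.52, limma adjusted p = 1.25e-05) had WT groups that did not overlap and missed a call by the 1.5-fold limit alone. Because each array holds 1 mouse, p-values measure the spread between mice. In RNA from whole liver, fewer cells of a type and less RNA per cell cannot be told apart.

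PCN treatment was followed by a broad response. Of 21056 genes tested, 798 (3.79%) were called higher and 504 (2.39%) lower in WT PCN than in WT CONT mice by limma, at an adjusted p of at most 0.05 and a fold change above 1.5. At an unadjusted p under 0.05 there were 7553 genes. The called rises were larger than the falls: 310 genes rose more than 2-fold and 58 more than 4-fold, whereas 108 fell more than 2-fold and 7 more than 4-fold. The median fold was 1.84 for rises and 1.68 for falls. The 2 groups did not overlap for 509 of the genes called higher (63.8%) and 352 of those called lower (69.8%), beside 5.85% and 6.51% of all genes that were apart in these directions. P450 genes made 18 of the rises and 10 of the falls, and PPARα targets made 1 and 21.

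The share of rises depended on how arrays were scaled to each other. It was 61.3% of the calls here, 84.3% with the normalized values that the authors deposited (1390 higher, 259 lower) and 84.0% with stacked quantile normalization (1365 and 260). Those scalings put the median change of all genes at 0.11, against -0.02 here. The split within washing batch 1 was 911 higher and 621 lower, and within washing batch 2, which holds 2 WT PCN arrays, it was 385 and 304.

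A minority of the genes called in WT mice were also called in Pxr-/- mice, where 1.42% of all genes were called higher and 0.860% lower. These were 183 of the rises (22.9%) and 77 of the falls (15.3%). The sign was the same in Pxr-/- mice for 85.2% of the rises and 93.1% of the falls, and this share was not computed over all genes. The change itself was called larger in WT than in Pxr-/- mice for 141 of the rises (17.7%), beside 0.807% of all genes, and called lower for 37 of the falls (7.34%), beside 0.242%.

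The 12 largest named rises outside the P450 genes and PPARα targets were 8-fold or more. The plot of the largest changes shows them with the 12 largest falls. Among the rises were enzymes that reduce or hydrolyse foreign compounds (Akr1b7, Ces2a), a stress response gene (Gadd45b), a lipase gene (Pnpla5) and a collagen gene (Col1a1). Of these 12 genes, 11 had a change called larger in WT than in Pxr-/- mice, and for Col1a1 the difference was not called.

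**Figure D1:**
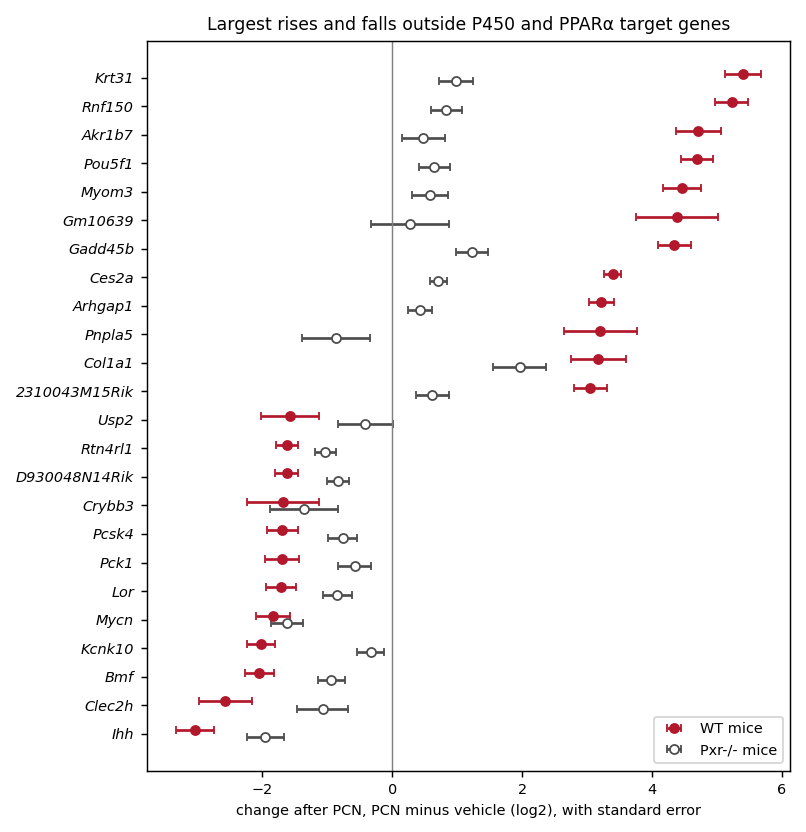
Change after PCN (log2, PCN minus vehicle) of the 12 largest rises and 12 largest falls in WT mice, with standard errors from the limma fit, for WT mice (filled, 5 against 6 arrays) and Pxr-/- mice (open, 6 against 6). WT rises reached 5.41 and WT falls -3.04, and most Pxr-/- changes lay closer to 0 than the WT changes.

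Of these 12 rises, 4 were read from probes with letters in common. The array probes are 60 bases long, and the probes of Krt31 (a hair keratin), Rnf150 (a RING finger protein), Pou5f1 (the stem cell factor Oct4) and Arhgap1 (a GTPase activating protein) hold the same run of 9 letters, GCCCTCCCT. No other run of 9 letters was in more than 2 of the 12 probes. Stretches of 30 bases of these probes follow, read from the array files 5′ to 3′ with the shared run in capitals, together with that of Gstm3 (a glutathione S-transferase), the remaining named gene whose probe holds it.
Krt31: agtgccagtgGCCCTCCCTtgtaatctccc
Rnf150: gGCCCTCCCTgaacacatttttaaaaatat
Pou5f1: agtgcccgaaGCCCTCCCTacagcagatca
Arhgap1: ccctgtgcctGCCCTCCCTgctaataggga
Gstm3: cttagtgacgGCCCTCCCTagagttaccct
The array design places these probes at chr11:99907960-99908019 (Krt31), chr8:85518379-85518438 (Rnf150), chr17:35647013-35647072 (Pou5f1), chr2:91511458-91511517 (Arhgap1) and chr3:107766730-107766789 (Gstm3) of mm9. Its files name a gene for each probe but not the exon or UTR.

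The same run was searched on the probe strand in all 32087 probes tested. It was found in 27 probes, of which 17 (63%) were called higher and 0 lower, beside 3.38% and 2.13% of all probes. Leaving aside the 4 probes of the largest rises, 13 of 23 (56.5%) were called higher. There were 10581 runs of 9 letters that lay in probes of at least 20 genes, and GCCCTCCCT had the highest share of rises among them. It was the only such run with a share of 50% or more, and the next highest share was 26.1%. The search was made after the values were seen and carries no test.

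**Figure D2:**
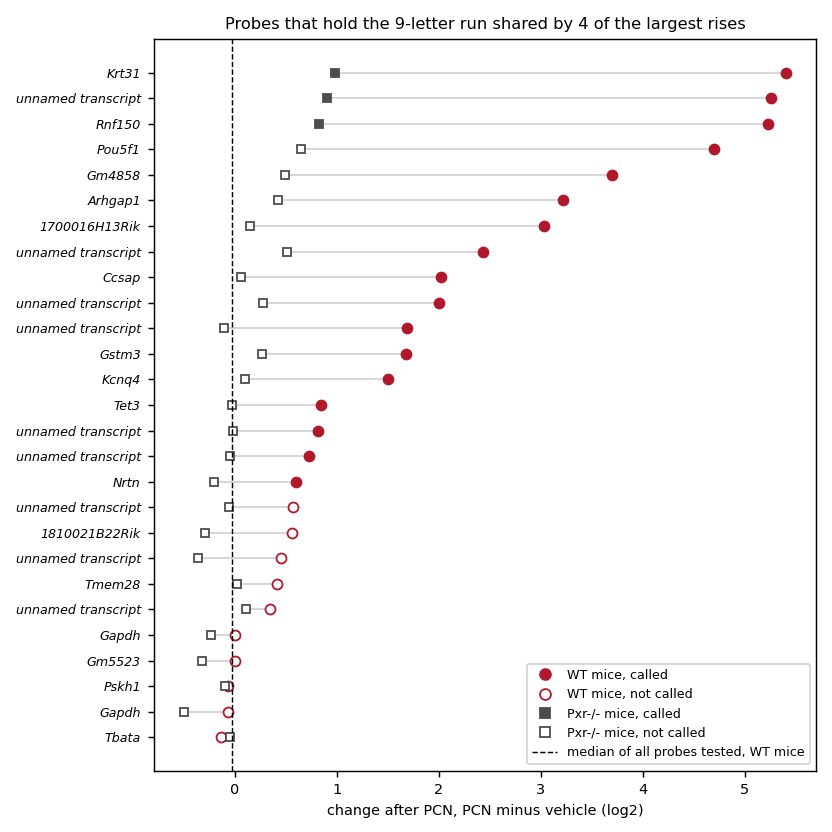
Change after PCN (log2) of the 27 tested probes that hold the run, named by the gene the array files give, in WT mice (circles) and Pxr-/- mice (squares), filled where called; the dashed line is the median of all probes tested in WT mice. WT changes ran from -0.13 to 5.41 with a median of 0.85, and 17 of 27 were called higher, against 3 of 27 in Pxr-/- mice.

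In WT mice these changes spread from 5.41 for Krt31 through 3.70 for Gm4858 and 2.03 for Ccsap to 0.60 for Nrtn. The Gapdh probes with the run changed by 0.0030 and -0.067. Rnf150 and Arhgap1 each had another tested probe without the run. Those probes changed by 0.49 (adjusted p = 0.0348) and 0.33 (adjusted p = 0.0196) and were not called, against 5.23 and 3.22 for the probes with it. Genes read from a probe with the run made 16 of the 798 genes called higher. Which transcripts gave the signal on these probes was not tested, so the rises named Krt31, Rnf150, Pou5f1, Arhgap1 and Gstm3 are rises of the probe.

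Of 77 enzymes that reduce, hydrolyse or conjugate foreign compounds, 19 rose and 4 fell, with a median of 0.13. Akr1b7, an aldo-keto reductase that removes lipid aldehydes, was read at chr6:34372905-34372964 (mm9). Its log2 signals were 9.15, 10.72, 10.17, 11.89 and 10.21 in the 5 WT PCN mice, against a lowest value of 5.26, a median of 5.51 and a highest of 6.54 in WT CONT mice. Every WT PCN mouse was above every WT CONT mouse, the change was 4.71 ± 0.35 (SE; limma adjusted p = 4.96e-09), or 26.2-fold, and that in Pxr-/- mice was 0.48 (adjusted p = 0.432).

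Ces2a, a carboxylesterase that cleaves ester drugs, had the most even rise of the 12. WT PCN mice read 15.65, 16.15, 16.15, 16.08 and 15.94, and WT CONT mice ran from 12.44 through 12.61 to 12.88. The change of 3.39 ± 0.14 (10.5-fold, adjusted p = 1.64e-13) was set against 0.71 in Pxr-/- mice (adjusted p = 0.00319), and the difference of 2.69 was called (adjusted p = 1.53e-08). Sult2a7, a sulfotransferase of steroids and bile acids, rose by 2.24 ± 0.37 (adjusted p = 1.88e-04) and changed by -0.07 in Pxr-/- mice. Papss2, which makes the sulfate donor, rose by 1.33 ± 0.15, Akr1d1, a reductase of bile acid synthesis, by 1.59 ± 0.17 and Sult1e1, the oestrogen sulfotransferase, by 1.18 ± 0.27. Other carboxylesterases rose less than Ces2a, with 1.11 for Ces1g, 1.07 for Ces1d and 0.97 for Ces2g, and neighbouring family members may share signal. The falls were Ces4a (-0.91), Adh4 (-0.75), Sult2a8 (-0.69) and Ephx2 (-0.62). This number of falls was 2 without WT CONT replicate 4, 1 without WT PCN replicate 4 and 0 with the deposited values, which gave 25 rises.

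Glutathione is the tripeptide that these enzymes couple to reactive compounds. Of 41 genes of glutathione use and of the oxidant sensor Nrf2, 12 rose and 0 fell. For 8 of the 12 the change was called larger in WT than in Pxr-/- mice. Gstm4 was the clearest of the mu class: WT PCN mice read 13.81, 14.71, 14.41, 14.73 and 14.39, WT CONT mice 11.58 at the lowest, 11.98 at the median and 12.67 at the highest. The groups were apart and the change was 2.45 ± 0.17 (adjusted p = 2.18e-09), against 0.34 in Pxr-/- mice. Gstm2 rose by 2.41 ± 0.20 and Gstm1 by 1.66 ± 0.16. The probe labelled Gstm1 lies on chromosome 5 in the array design whereas RefSeq puts the gene on chromosome 3, and related mu-class transcripts may share it.

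The alpha class was more variable between mice. Gm10639, a predicted gene at chr9:78153243-78153302 near Gsta2, read 14.04, 16.05, 15.14, 16.50 and 15.36 in WT PCN mice. WT CONT mice ran from 9.11 through 10.97 to 13.33, below all of these, and the change was 4.38 ± 0.63 (adjusted p = 5.24e-05). Gsta2 rose by 2.61 ± 0.54 (adjusted p = 0.00149), with a highest WT CONT mouse at 13.70 above the lowest WT PCN mouse at 13.28. Gstt3 (theta class) rose by 1.59 ± 0.20, Gsr, which restores reduced glutathione, by 0.79, and Srxn1, a target of Nrf2 that repairs peroxiredoxins, by 0.61.

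Transport and electron supply changed in fewer genes. Of 35 liver transporters 3 rose and 3 fell. Slco1a4, an uptake carrier of bile acids and drugs, read 11.53, 12.19, 11.99, 11.68 and 11.58 in WT PCN mice and 8.29 to 10.54 with a median of 8.83 in WT CONT mice. It rose by 2.78 ± 0.32 (adjusted p = 4.09e-06) and by 1.31 in Pxr-/- mice (adjusted p = 0.0140), and the difference was not called. The export pumps Abcc3 and Abcb1a rose by 1.38 ± 0.13 and 1.30 ± 0.25, whereas the carriers Slco1a1 (-0.90) and Slc22a30 (-0.86) and the phospholipid pump Abcb4 (-0.74) fell. Among 23 genes of haem synthesis and P450 electron supply, Por (1.04 ± 0.16), Alas1 (0.70) and Hmox1 (0.59) rose. Hmox1, which breaks down haem, was not called in 8 alternatives, among them without replicate 1 or 5 of WT CONT or WT PCN replicate 3 or 4.

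**Figure D3:**
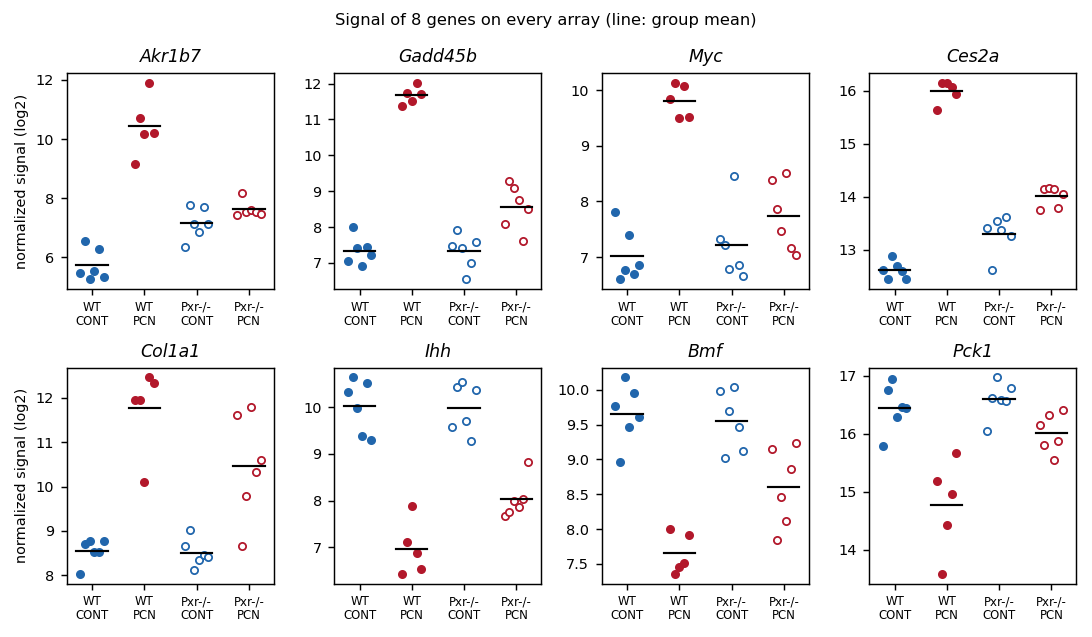
Quantile-normalized log2 signal of 8 genes on every array, with 1 point per mouse and a line at the group mean, for vehicle and PCN in WT mice (6 and 5) and in Pxr-/- mice (6 and 6). The WT groups do not overlap for Akr1b7, Gadd45b, Myc, Ces2a, Col1a1, Ihh, Bmf or Pck1.

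Promoters of the rising genes were searched for letters of the sites that PXR binds with RXR. The half-sites AGGTCA and AGTTCA were searched on either strand as direct repeats with 3 or 4 bases between or as everted repeats with 6 bases between, in RefSeq promoters of 300 bases (GRCm38.p6). Of the genes named by the rule, 107 of 138 called higher and 50 of 61 called lower had a promoter in the table. Such pairs were in the promoters of 0 of these 107 genes, 0 of the 50 and 15 of all 27025 genes (0.0555%). A half-site on its own was in 27.1% of 144 promoters of genes called higher, 30.2% of 63 of genes called lower and 27.7% of all 32851. The promoter of Akr1b7, the largest rise among the enzymes (chr6:34412112-34412411, plus strand), is shown because it holds 1 half-site, read on the other strand as the letters in capitals, and it was chosen after the pairs gave no match.
Akr1b7: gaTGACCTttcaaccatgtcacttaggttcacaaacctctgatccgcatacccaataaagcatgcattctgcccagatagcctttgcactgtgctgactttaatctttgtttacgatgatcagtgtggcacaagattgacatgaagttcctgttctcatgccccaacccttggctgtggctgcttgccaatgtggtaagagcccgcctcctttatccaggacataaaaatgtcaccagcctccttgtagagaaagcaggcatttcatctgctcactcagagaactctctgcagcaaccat
The window ends 50 bases after the start of the gene, and distal sites lie outside it.

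Of 35 immediate early genes, which respond to growth factors and stress without new protein, 15 rose and 0 fell, with a median of 0.49 against -0.02 for all genes and 0.43 in Pxr-/- mice. Gadd45b, a stress response gene induced during liver regeneration, read 11.38, 11.74, 11.51, 12.02 and 11.71 in WT PCN mice and 6.93 to 7.997 with a median of 7.31 in WT CONT mice. The groups were more than 3 units apart, and the rise was 4.35 ± 0.26 (20.3-fold, adjusted p = 1.54e-10). It also rose in Pxr-/- mice, by 1.23 (adjusted p = 0.00546), and the difference of 3.12 was called.

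Myc, a transcription factor of growth, showed a similar pattern. WT PCN mice read 9.84, 10.13, 9.51, 10.07 and 9.52, all above the WT CONT mice at 6.60 to 7.81 with a median of 6.81. It rose by 2.77 ± 0.30 (6.81-fold, adjusted p = 1.85e-06), against 0.52 in Pxr-/- mice (adjusted p = 0.30), and the difference was called. Fos rose by 2.00 ± 0.30, Egr2 by 1.58 ± 0.21 and Atf3, a stress repressor, by 1.53 ± 0.18, and each of these also rose in Pxr-/- mice without a called difference. Mycn, a relative of Myc, fell instead, by 1.83 ± 0.26 (adjusted p = 4.80e-05) in WT and 1.62 in Pxr-/- mice.

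Of 53 ribosome biogenesis genes, which make and process ribosomal RNA, 16 rose and 0 fell, 50 were above 0 and the median was 0.34, against 0.17 in Pxr-/- mice. Gar1, a small nucleolar protein, read 12.21, 12.37, 12.19, 12.40 and 12.17 in WT PCN mice and 10.92 to 11.26 with a median of 11.14 in WT CONT mice. Apart from Myc, which is also in this list, it had the largest rise (1.15 ± 0.11, adjusted p = 1.70e-07). Nop58 rose by 1.04 ± 0.14, Ppan by 0.91 ± 0.14 and Polr1a, the largest subunit of RNA polymerase I, by 0.64 ± 0.10. The count of rises was 15 within washing batch 1 and 14 within batch 2.

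Mitosis genes rose in most of the list, with wide spread between mice. Of 40 tested, 25 rose, Spc25 fell (-0.76), and the median was 0.89, against 0.47 in Pxr-/- mice. Prc1, a protein of the central spindle, read 7.35, 8.05, 7.57, 9.34 and 8.15 in WT PCN mice and 5.42 to 7.29 with a median of 6.35 in WT CONT mice. The lowest WT PCN mouse lay just above the highest WT CONT mouse, and the rise was 1.72 ± 0.32 (adjusted p = 6.34e-04). Mki67, the proliferation marker, read 7.95, 8.76, 8.64, 9.97 and 8.65 against 6.75 to 8.25 with a median of 7.39, so its groups overlapped, with a rise of 1.37 ± 0.29 (adjusted p = 0.00161) and 1.11 in Pxr-/- mice.

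WT PCN replicate 4 was the highest mouse for Prc1, Mki67, Plk1, Ccna2 and Anln. Without it 19 of the 40 mitosis genes rose. Cdc20 (1.56 ± 0.48) was not called without this mouse or without WT CONT replicate 1 or 5. The washing batches differed for this list, with 23 rises within batch 1 (median 1.15) and 0 within batch 2 (median 0.52). The difference from Pxr-/- mice was called for 0 of the 25. DNA replication genes rose in 4 of 44 cases (Uhrf1 0.92, Rrm2 0.88, E2f7 0.82, Chaf1b 0.81) and Mcm10 fell (-1.02). Rrm2 was not called without WT PCN replicate 2, nor E2f7 without WT PCN replicate 3. Of 35 p53 targets and growth arrest genes, 7 rose and 3 fell, with Gadd45a at 1.65 ± 0.19, Cdkn1a at 1.14 ± 0.37 (not called without replicate 1, 3 or 6 of WT CONT or WT PCN replicate 4 or 5) and Trp53inp2 at -1.35 ± 0.13. Of 31 genes of the BCL2 family and apoptosis, Bik (0.94) and Dapk2 (0.67) rose and Bmf (-2.05), Bcl2l1 (-0.70) and Cflar (-0.62) fell. Dapk2 was not called without WT PCN replicate 2, nor Cflar without WT CONT replicate 2.

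**Figure D4:**
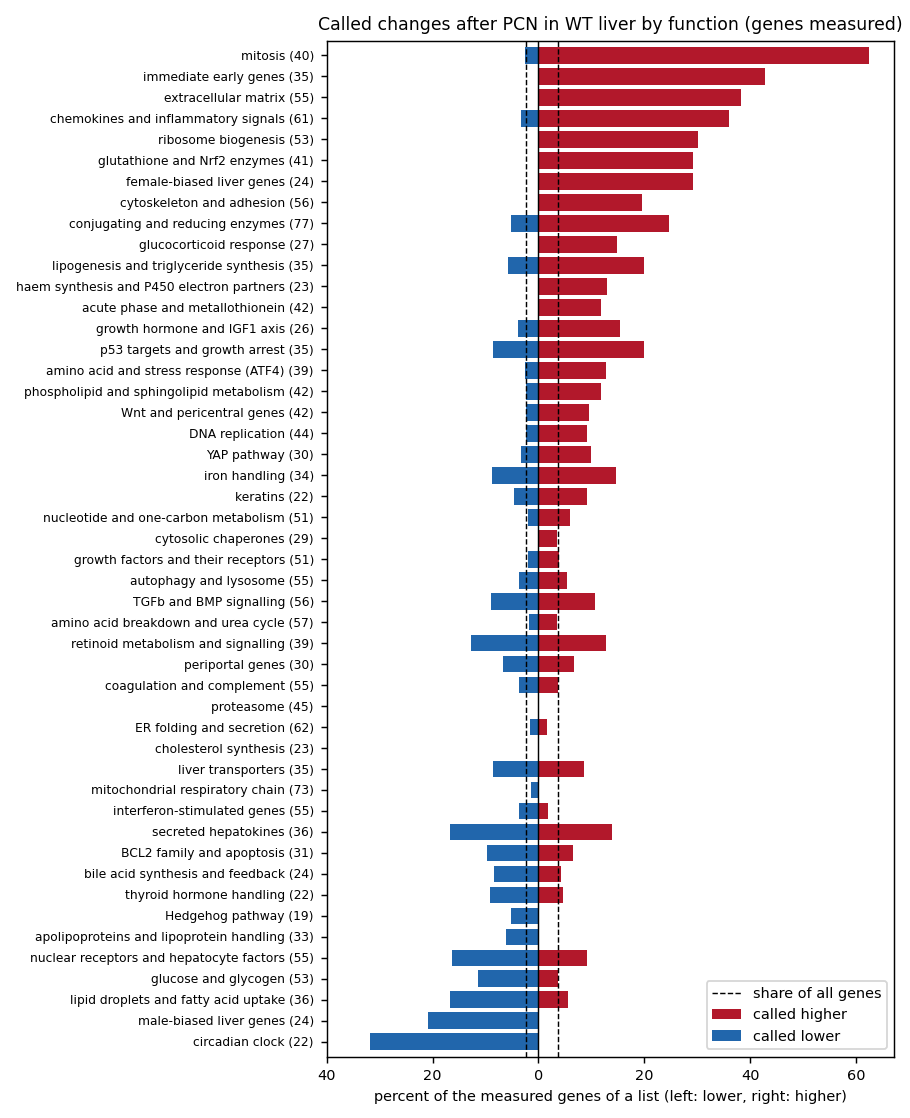
Share of genes called higher (to the right, percent) and lower (to the left, percent) after PCN in WT mice in 48 functional lists, with the number of genes tested in parentheses and the share of all genes (3.79% and 2.39%) as dashed lines. Mitosis (62.5%) and immediate early genes (42.9%) have the highest shares of rises and circadian clock genes (31.8%) the highest share of falls.

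Of 61 chemokines, alarmins and related genes, 22 rose and 2 fell (Ccl25 -0.65 and Cxcl12 -0.79), with a median of 0.44 in WT and 0.32 in Pxr-/- mice, where 13 rose and 0 fell. S100a8, a subunit of the alarmin calprotectin of neutrophils, read 10.998, 10.39, 10.26, 11.72 and 11.61 in WT PCN mice and 7.59 to 10.13 with a median of 8.57 in WT CONT mice. The groups did not overlap, and it rose by 2.21 ± 0.46 (adjusted p = 0.00148) in WT and by 2.19 in Pxr-/- mice. Cxcl1, a chemokine that attracts neutrophils, rose by 2.14 ± 0.65 (adjusted p = 0.0211) and 2.69 in Pxr-/- mice, and its WT call was lost without WT CONT replicate 1, WT PCN replicate 4 or WT PCN replicate 5. The monocyte attractants Ccl7 and Ccl2 rose by 1.57 ± 0.25 and 1.42 ± 0.31, and Anxa1, which limits inflammation, by 1.56 ± 0.18. Of these 24 called genes, the difference from Pxr-/- mice was called for Cxcl12 alone.

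Markers of neutrophils and monocytes moved with this group. Of 11 markers, 6 rose (Retnlg 2.76, S100a8 2.21, S100a9 2.03, Cxcr2 0.94, Mpo 0.83 and Ccr2 0.65) and 0 fell, while Lyz2 (0.61), Ly6g (0.16), Elane (0.05), Itgam (0.03) and Ly6c2 (-0.05) were not called. Their summed linear signal ran from 14741 to 27628 in WT CONT and from 30844 to 39327 in WT PCN mice. The brightest of the 11 in this sum was Lyz2, which was not called. Its mean log2 signal was 13.68 in WT CONT and 14.29 in WT PCN mice. S100a8, S100a9, Cxcr2 and Ccr2 are in both lists. Within washing batch 1, 5 of them rose, and within batch 2, 0. Of 11 Kupffer cell markers, 0 were called by limma and 0 had an unadjusted p under 0.05. The part of these cells in the inflammatory genes was not tested.

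Of 55 genes of collagens, their enzymes and matrix proteins, 21 rose and 0 fell, with a median of 0.37 (0.24 in Pxr-/- mice). Col1a1, the main fibrillar collagen, read 11.96, 11.96, 10.11, 12.46 and 12.34 in WT PCN mice and 8.03 to 8.77 with a median of 8.61 in WT CONT mice, and its 3 probes moved alike. It rose by 3.17 ± 0.42 (9.02-fold, adjusted p = 2.33e-05) and by 1.96 in Pxr-/- mice (adjusted p = 0.00628), and the difference was not called (adjusted p = 0.350). Col3a1 and Col1a2 rose by 2.18 each, Thbs1, a matrix protein that activates TGFβ, by 2.37 ± 0.27 and Timp1, an inhibitor of matrix proteases, by 1.56 ± 0.30. WT PCN replicate 3 was the lowest of its group for Col1a1, Col3a1, Col1a2, Thbs1 and Timp1. Of 12 stellate cell markers 2 rose, and these were the collagens Col1a1 and Col3a1, whereas the other 10 were not called. Of these, Pdgfrb was at 0.41 (adjusted p = 0.0655), Acta2 at 0.39 (adjusted p = 0.0273), Hgf at 0.23, Ngfr at 0.10, Des at 0.09, Reln at 0.08, Cygb at 0.05, Colec11 at -0.06, Rgs5 at -0.16 and Lrat at -0.47. At an unadjusted p under 0.05, 4 of the 12 were higher and 1 lower, beside 7553 of all 21056 genes in either direction. Col1a1 and Col3a1 are among the 4. The summed linear signal of the 12 was 11105 to 15837 in WT CONT and 14719 to 28694 in WT PCN mice. The sum includes Col1a1 and Col3a1, whose mean log2 signals were 8.55 and 10.11 in WT CONT and 11.76 and 12.32 in WT PCN mice. The part of these cells in the matrix genes was not tested.

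The batches differed for these groups as well. Within washing batch 1, 24 inflammatory, 23 matrix and 19 immediate early genes rose. Within washing batch 2 there were 4, 1 and 4, with medians of 0.27, 0.36 and 0.25. Genes of the cytoskeleton rose in 11 of 56 cases, led by Vim (1.32 ± 0.20), an intermediate filament of mesenchymal cells, Tagln (1.13) and Tubb6 (1.12). Krt14, a keratin of basal epithelium, rose by 2.27 ± 0.35 in WT and 2.18 in Pxr-/- mice and was called in every alternative. Acute phase genes rose in 5 of 42 cases in WT (Orm3 2.62, Cd14 2.00, Mt2 1.87, Steap4 1.45 and Cebpd 1.00) and 10 in Pxr-/- mice. Without WT CONT replicate 6, 11 of them rose in WT mice, and with the deposited values 10. The WT call of Mt2 was lost in 12 alternatives, among them without replicate 1, 2, 3 or 5 of WT CONT or WT PCN replicate 1, 2, 4 or 5.

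**Figure D5:**
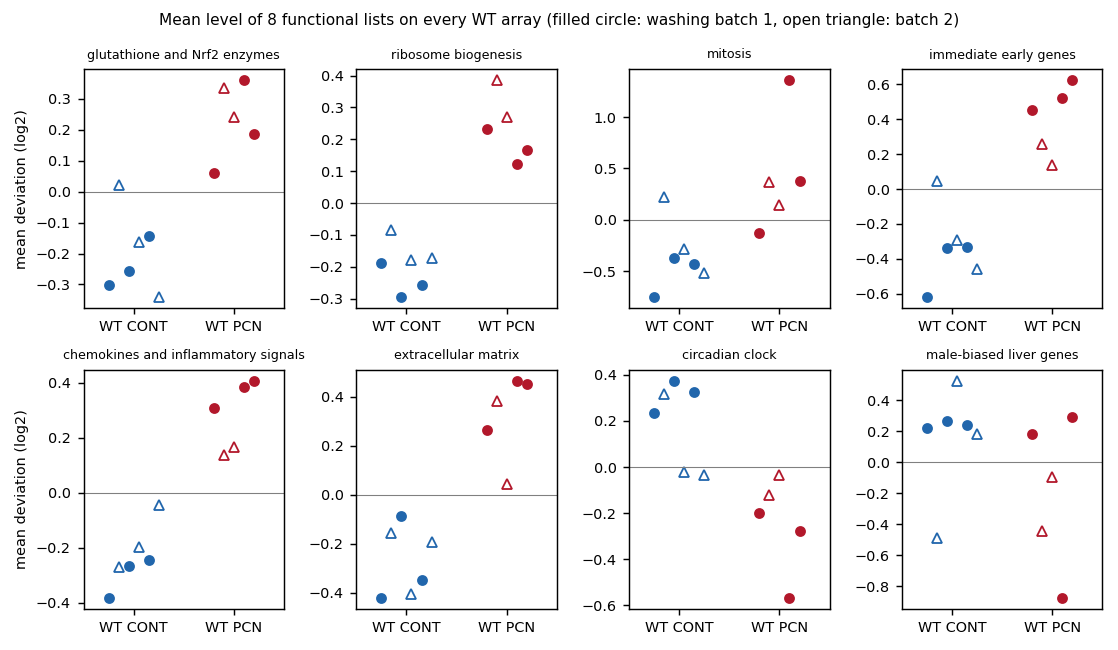
Mean deviation of 8 functional lists on every WT array (log2, each gene relative to its mean over the WT arrays), for washing batch 1 (filled circles) and batch 2 (open triangles). Mitosis scores ran from -0.75 to 0.22 in WT CONT and from -0.13 to 1.36 in WT PCN mice, with WT PCN replicate 4 at the top. The groups did not overlap for matrix, ribosome, immediate early, chemokine and glutathione genes.

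The largest fall was that of Ihh. This gene, the Hedgehog ligand of the liver and the only 1 of 19 tested Hedgehog genes that was called, read 6.44, 7.12, 7.88, 6.88 and 6.54 in WT PCN mice. WT CONT mice ran from 9.29 through 10.16 to 10.63, all above these, and 2 of 2 probes fell. Its change in Pxr-/- mice was called as well (-1.96), without a called difference. Bmf, which triggers apoptosis by binding BCL2 proteins, read 7.997, 7.36, 7.46, 7.51 and 7.92 against 8.96 to 10.17 with a median of 9.69, and its other probe (-0.71) was not called.

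Kcnk10, a potassium channel, was the only 1 of the 12 largest falls with a called difference from Pxr-/- mice (-1.69, adjusted p = 0.00267). WT PCN mice read 5.07, 4.996, 4.82, 5.18 and 5.52, not well above background on any array, and WT CONT mice 6.61 to 8.04 with a median of 6.98. The fall was at least 3.61-fold (means of 7.12 and 5.12, adjusted p = 1.37e-06), and its dimmer probe was not called. Pcsk4, a proprotein convertase, fell by 1.70 ± 0.24, Lor, a protein of the skin barrier, by 1.72 ± 0.23, and Rtn4rl1, a receptor related to the Nogo receptor, by 1.62 ± 0.17. Crybb3, a lens crystallin, fell by 1.69 ± 0.55 with overlapping groups (WT CONT 5.66 to 9.98), and its call was lost in 12 alternatives, among them without replicate 1, 3, 5 or 6 of WT CONT or WT PCN replicate 1, 2, 3 or 5.

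Among 53 genes of glucose and glycogen metabolism, 6 fell and 2 rose (median -0.07), and with the deposited values 4 fell and 5 rose (median 0.15). Pck1, the rate-limiting enzyme of gluconeogenesis, read 15.18, 13.59, 14.44, 14.96 and 15.68 in WT PCN mice and 15.79 to 16.94 with a median of 16.45 in WT CONT mice. The groups did not overlap, and the change was -1.70 ± 0.27 (adjusted p = 1.23e-04), against -0.58 in Pxr-/- mice (adjusted p = 0.184). The difference between these changes was not called. Ppargc1a, a coactivator of gluconeogenesis genes, fell by 1.2 ± 0.18 (adjusted p = 9.88e-05) in WT and by 0.96 in Pxr-/- mice, the glycogen targeting subunit Ppp1r3c by 1.04, the insulin receptor substrate Irs1 by 0.95 ± 0.21 and the glycogen synthase gene Gys2 by 0.74. Ppp1r3g, another glycogen targeting subunit that is active after feeding, rose by 1.58 ± 0.45 (adjusted p = 0.0150) and changed by -1.18 in Pxr-/- mice, a called difference, but the WT call was lost without WT PCN replicate 1 and within either batch. Pgd, of the pentose phosphate pathway that supplies NADPH, rose by 0.79 ± 0.13.

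Of 35 genes of fatty acid and triglyceride synthesis, 7 rose and 2 fell, with a median of 0.03. In Pxr-/- mice 0 of them rose and 5 fell, with a median of -0.40. Of 36 genes of lipid droplets and fatty acid uptake, 2 rose and 6 fell in WT mice (3 and 4 with the deposited values). Pnpla5, a lipase of the patatin family, read 10.37, 10.00, 9.22, 7.94 and 9.08 in WT PCN mice and 5.45 to 7.48 with a median of 6.10 in WT CONT mice. It rose by 3.20 ± 0.56 (adjusted p = 3.24e-04), and -0.87 in Pxr-/- mice was not called. Elovl6, which elongates fatty acids, rose by 1.09 ± 0.36, and its call was lost without any of 4 arrays (WT CONT replicate 6 and WT PCN replicates 1, 2 and 3). Insig2, which holds back SREBP processing, rose by 1.06 ± 0.27, but changed by -0.018 within washing batch 2. Fabp2, a fatty acid carrier, read 12.88, 12.43, 12.53, 12.44 and 12.83 against 13.81 to 14.72 with a median of 14.07, and fell by 1.55 ± 0.16 (adjusted p = 1.09e-06). The lipase Mgll (-0.88) and the droplet coats Plin2 (-0.75) and Plin5 (-0.65) also fell. These genes are among the PPARα targets that the naming rule set aside. WT PCN replicate 4 was the lowest mouse of its group for Pnpla5, Pnpla3 and Thrsp.

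Of 22 circadian clock genes, 7 fell and 0 rose, with a median of -0.43 (-0.18 in Pxr-/- mice). Dbp, a transcription factor whose level follows the clock, read 13.94, 14.16, 14.26, 12.66 and 13.67 in WT PCN mice and 14.78 to 15.47 with a median of 15.32 in WT CONT mice. It fell by 1.49 ± 0.24 (adjusted p = 1.59e-04), and its relatives Hlf and Tef by 0.99 and 0.81. The core clock genes Nr1d1 (-0.78), Bhlhe41 (-0.65) and Cry2 (-0.61) were also called. The call of Nr1d1 was lost in 14 alternatives, among them without WT CONT replicates 1, 3, 4 or 6 or any of WT PCN replicates 1 to 4, and that of Bhlhe41 in 8, among them without replicate 3 or 4 of WT CONT or WT PCN replicate 4. Usp2, a clock-driven ubiquitin protease, fell by 1.58 ± 0.45 with overlapping groups. The count of falls was 4 without replicate 3 of WT CONT or WT PCN replicate 4, 3 with the deposited values, and 9 and 1 within the batches.

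Nuclear receptors and hepatocyte factors moved in both directions, with 5 of 55 higher, 9 lower and a median of -0.20. Nr6a1 (germ cell nuclear factor) moved with little spread between mice. WT PCN mice read 10.19, 10.16, 10.06, 10.13 and 10.22 and WT CONT mice 9.01 to 9.24 with a median of 9.18. It rose by 1.01 ± 0.09 (adjusted p = 5.40e-08) and changed by -0.38 in Pxr-/- mice, with a called difference of 1.39 (adjusted p = 1.91e-07). Esr1, the oestrogen receptor, rose by 0.99 ± 0.15. Nr0b2, the small heterodimer partner that represses bile acid synthesis, fell by 1.03 ± 0.33 with overlapping groups, a call lost in 8 alternatives, among them without replicate 3 or 5 of WT CONT or WT PCN replicate 1 or 2. Cebpa (-0.72), Nr3c2, the mineralocorticoid receptor (-0.89), and Thra, a thyroid hormone receptor (-0.67), fell too. With the deposited values 8 of the list rose and 2 fell.

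Many genes of the liver differ in level between males and females, which follows the pattern of growth hormone release. Of 24 male-biased genes 5 fell and 0 rose (median -0.35), and of 24 female-biased genes 7 rose and 0 fell (median 0.20), 4 of the 7 being P450 genes. The other 3 were Atp6v0d2, Cux2 and Slc22a26, an organic anion carrier (0.87), which was not called in 10 alternatives, among them without replicate 1, 3, 4 or 5 of WT CONT or WT PCN replicate 2 or 4. Hsd3b5, a steroid enzyme of males, read 13.66, 11.79, 13.35, 11.73 and 13.72 in WT PCN mice and 12.48 to 15.13 with a median of 14.64 in WT CONT mice, so the groups overlapped, and its fall of 1.52 ± 0.45 was not called without WT PCN replicate 2 or 4. Atp6v0d2, a proton pump subunit, rose by 1.99 ± 0.38 (adjusted p = 7.67e-04) with groups apart. Cux2, a repressor of male genes in the female liver, was not well above background in any WT CONT mouse and was so in 4 of 5 WT PCN mice. It was called higher, by at least 2.62-fold (means 6.59 against 5.09), with overlapping groups, and was not called without WT PCN replicate 2, 3 or 4. Its probe could be kept for the test through WT PCN mice alone. WT CONT replicate 2 had the lowest male-biased and the highest female-biased level of its group. Female-biased rises numbered 4 without WT PCN replicate 2, and male-biased falls 3 without WT PCN replicate 2 or 4.

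Secreted factors and their pathways moved in both directions. Of 36 hepatokine genes 5 rose and 6 fell (7 and 3 with the deposited values). Enho, the peptide adropin, fell by 1.19 ± 0.30 (adjusted p = 0.00610), with WT PCN mice at 12.996, 12.90, 13.37, 13.45 and 13.12 below WT CONT mice at 14.06 to 14.68. Nrg4, a ligand of ErbB receptors, rose by 1.37 ± 0.35, and Hamp, the iron hormone hepcidin, fell by 0.95 ± 0.32, a call lost in 14 alternatives, among them without replicate 2, 3, 5 or 6 of WT CONT or WT PCN replicate 1, 2, 3 or 5. Of 56 TGFβ and BMP genes 6 rose and 5 fell. The activin subunit Inhbb rose by 1.59 ± 0.38, whereas the inhibitor Smad7 fell by 1.05 ± 0.20 and the subunit Inhbe by 1.08 ± 0.32 (not called without WT PCN replicate 4). Igfbp5 fell by 1.22 ± 0.24 and Igfbp2 rose by 0.96 ± 0.19, both binding proteins of insulin-like growth factors. Tfrc, which takes up iron, rose by 1.41 ± 0.28. Aldh1a3, which makes retinoic acid, rose by 1.47 ± 0.18. Retsat, a retinol saturase that is among the PPARα targets set aside, fell (-1.12). Smpd3 and Sphk1, enzymes of sphingolipid breakdown and signalling, rose by 1.28 ± 0.23 and 1.2 ± 0.23.

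Some genes were above background in 1 of the WT groups alone. Called rises with a probe not well above background on any of the 6 vehicle arrays and well above it on all 5 WT PCN arrays numbered 17, of which 14 have a RefSeq name, and 3 falls (2 with a RefSeq name) had the opposite pattern. For these the fold is a bound, from the lowest signal well above background. A probe was kept if any 1 group passed, so these could be kept through the group where they are high alone. Their p-values are therefore not given here as support, and the share of all genes with these patterns was not computed. Rnf138rt1 was at least 5.01-fold higher (means 7.53 against 4.92) and Nebl, a nebulin relative of muscle, at least 2.89-fold (6.72 against 4.91). Cxcl5, a chemokine of neutrophils, was higher by at least 2.55-fold (6.54 against 4.997). Serpinb5, an epithelial serpin, was higher by at least 2.28-fold (6.39 against 4.83) and was also called higher in Pxr-/- mice (1.11). These genes were chosen after their values were seen, except Cxcl5. Myom3, a muscle myomesin and 1 of the 12 largest rises, passed that test on 4 of the 6 vehicle arrays and read 9.30, 10.56, 10.53, 9.69 and 10.61 in WT PCN mice against 5.43 to 5.93, a change of 4.46 ± 0.29 (adjusted p = 5.99e-10).

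Several functions had few calls, where 3.79% of all genes were called higher and 2.39% lower. Of all 21056 genes, 7553 had an unadjusted p under 0.05. At these shares a short list can hold 0 calls. Of 45 proteasome genes 0 were called by limma, with an unadjusted p under 0.05 for 18 (15 higher and 3 lower). Of 23 cholesterol synthesis genes 0 were called, with an unadjusted p under 0.05 for 6. Within washing batch 1, 4 of the cholesterol genes were called lower and within batch 2, 3 were called higher. Of 73 genes of the respiratory chain 0 rose and 1 fell, and this was Cox7a1, the muscle form of a cytochrome oxidase subunit (-1.53 ± 0.22). An unadjusted p under 0.05 was found for 28, of which 27 were lower and 1 higher. The median of this list was -0.11, against -0.02 for all genes. With the deposited values it was 0.14, against 0.11 for all genes. Of 62 genes of protein folding and secretion in the endoplasmic reticulum, 1 rose (Kdelr3, 0.73) and 1 fell (Sel1l, -0.63), and the falls numbered 5 without WT CONT replicate 2 and 7 without WT PCN replicate 4. Interferon-stimulated genes had a median of -0.28 over 55 genes, with 1 higher (Ifi27l2b, 1.06) and 2 lower (Usp18, -0.94, and Ifit1, -0.63), and 5 and 4 were lower without WT PCN replicate 1 and 3. Ifit1 was not called without replicate 2 or 4 of WT CONT or WT PCN replicate 2. Endothelial (12 genes), lymphocyte (10), red blood cell (7) and pancreas markers (4) had 0 calls by limma, with an unadjusted p under 0.05 for 3, 3, 1 and 0 of them. Cd3g (-0.45, limma adjusted p = 0.00641), Cd3d (-0.37, adjusted p = 0.0253) and Alas2 (-0.43, adjusted p = 0.0422) missed a call by the fold limit alone. Sox9 (0.76) was the only 1 of 9 cholangiocyte markers that was called, with overlapping groups, and it was not called within washing batch 2. Spp1 (0.82, limma adjusted p = 0.0758) and Krt7 (0.73, adjusted p = 0.0941) were not called. At an unadjusted p under 0.05, 3 of the 9 were higher and 0 lower.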

How the data were processed

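RNA of 23 mouse livers was hybridised to Agilent SurePrint G3 1-colour arrays. The authors deposited scanner files made with Agilent Feature Extraction 10.10.1.1, and per the file headers the gMedianSignal column holds spot intensity on a linear scale, before normalization between arrays. The authors also deposited a table of normalized log2 values, used here as an alternative. The study's methods name CrossNorm for normalization. Quantile normalization of log2 gMedianSignal stood in for it, and stacked quantile normalization was tried beside it.

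Control spots were left out, 2225 outlier spots were set missing, and spots of a probe were averaged. A probe was kept where over 50% of any group's arrays had it well above background (32087 of 56605). limma 3.58.1 in R 4.3.3 (data.table, version 1.17.8) fitted group and washing batch over the 23 arrays with 18 residual degrees of freedom. Each of 21056 genes was read from the brightest of its kept probes by mean signal, and 15826 have a RefSeq name. A call needed a Benjamini-Hochberg adjusted p of at most 0.05 over all genes or probes tested and a fold above 1.5. The scripts were tested on simulated data.

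Named genes were the 12 largest called rises and falls with a RefSeq name outside P450 genes and PPARα targets, and in each of 48 lists the leading gene of the list and at most 6 called genes. Other genes are named after their values were seen and were not followed one at a time through the alternatives. The comparison, lists and rule were chosen with earlier results of these data known. Lists carry no test and share genes. Gene names are those of the array design, and probes of related genes (Gstm, Gsta, Ces) may share signal. A sixth WT PCN array was not analysed here. A withheld item is not reported here. Alternatives were other scalings, background correction and filters, batch and slide terms, replicate blocks, array weights, only the WT arrays, each washing batch and each WT array left out. The number of arrays limits the precision.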

Additional observations from a re-analysis of the deposited data

Results flagged for a closer look

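Among 162 groups of values tested for a sample far from the others, 9 held one, where chance gives about 1 in 20. Col1a1 was low in WT CONT replicate 1 (8.03) and in WT PCN replicate 3 (10.106), and Rtn4rl1 was high in WT PCN replicate 4 (8.402). The mean deviation of the DNA replication list was high in WT CONT replicate 2 (0.175) and WT PCN replicate 4 (0.487). WT PCN replicate 4 was also low for Wnt and pericentral genes (-0.230) and high for cytoskeleton and adhesion genes (0.308). WT CONT replicate 2 was high for female-biased genes (0.325) and low for male-biased genes (-0.489).

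The change after PCN differed between WT and Pxr-/- mice by limma's interaction term for 12 of the 24 largest changes. On the log2 scale the differences were 4.42 for Krt31, 4.40 for Rnf150, 4.23 for Akr1b7, 4.05 for Pou5f1, 3.88 for Myom3, 4.11 for Gm10639 and 3.12 for Gadd45b. They were 2.69 for Ces2a, 2.79 for Arhgap1, 4.07 for Pnpla5, 2.43 for 2310043M15Rik and -1.69 for Kcnk10.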

How the results depend on the processing

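The number of genes called higher was 1390 with the deposited values, 1365 with stacked quantile normalization and 385 within washing batch 2. The number called lower was 259, 260 and 304 in the same order, and 850 with the processed signal. Changes larger in WT than in Pxr-/- mice numbered 71 within batch 1 and 78 within batch 2. Changes lower in WT mice numbered 32 with the deposited values, 22 with stacked quantile normalization, 13 within batch 1, 13 within batch 2 and 92 with array weights. Leaving out each WT array in turn gave 721 to 864 genes higher, 480 to 567 lower, 147 to 190 larger and 43 to 71 lower in WT than in Pxr-/- mice. Relative to all genes, list medians moved to 0.584 (chemokines), 0.567 (matrix) and 1.58 (mitosis) with the processed signal. They moved to 0.028 (conjugating enzymes), 0.8003 (immediate early genes) and -0.120 (nuclear receptors) within batch 1. Within batch 2 they moved to 0.296 (chemokines), 0.252 (conjugating enzymes), 0.282 (immediate early genes) and 0.454 (ribosome biogenesis). Insig2 (-0.018) and Srebf1 (0.015) changed direction within batch 2. The cause of these shifts was not tested, beyond the 2 WT PCN arrays that batch 2 holds.

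With replicate numbers as a block, 802 genes were higher, 497 lower, 179 larger and 58 lower in WT than in Pxr-/- mice. Same-numbered arrays were not paired: over 5 pairs their deviations correlated at -0.064 to 0.171, 1 pair was over 0.1, 2 correlated best with their own number, and 3 shared a washing batch.

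Of 199 named called genes, 55 had no alternative that kept the direction and lost the call. Among these 55 is Insig2, which changed direction within batch 2 and was not called there. Losses with the direction kept were most frequent within batch 2 (117 genes) and batch 1 (48). They were next most frequent with the deposited values (26) and without WT PCN replicate 4 (26). Insig2 and Srebf1, which changed direction within batch 2, are not among the 117.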

Other observations

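The 5 WT PCN arrays stood in the same order for 7 of the 12 largest rises (58.3%). From lowest to highest this was replicate 1, 3, 5, 2 and 4, and the genes were Krt31, Rnf150, Pou5f1, Arhgap1, Akr1b7, Gadd45b and Gm10639. The order was taken from Krt31, which therefore has it by definition. Rnf150, Pou5f1 and Arhgap1 were read from probes that share the run of letters with the Krt31 probe. That order held for 47 of the 798 genes called higher (5.89%), 299 of the 21047 genes with a value on every WT PCN array (1.42%) and 2 of the 18 P450 genes called higher. Of the 27 probes with the shared run of letters, 8 had it. The order was noticed in these data and carries no test.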
